A study of Mus musculus with 49 samples.

Results

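P2ry12 and Itga2b are mouse genes whose products are defining proteins of platelets. Both were measured here in RNA labelled as from blood mononuclear cells (PBMC), in a study of acute lung injury. The mice were given oleic acid or, as controls, physiological serum. They are 2 of the 5770 genes with a clone on the arrays, chosen by gene name. Each was measured by 1 clone of the 7739, so no other clone of either gene was available to set beside it. Earlier values from these same mice were known when the genes were chosen: the late level of Itga2b in oleic acid mice against its early level was among them, and that contrast is therefore given as a description with no test.

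The study injected oleic acid, a fatty acid that damages the lung when given into a vein, and followed the blood cells over 6 times. Oleic acid (OA) mice received 20 µl through the tail vein under anesthesia with xylazine and ketamine, and control mice received physiological serum by the same route. All mice were wild-type C57Bl/6J females aged 7 weeks. Blood was taken 1, 1.5, 3, 4, 18 and 24 h after injection. OA mice numbered 4, 6, 4, 4, 4 and 4 at these times, and serum mice 2, 1, 2, 2, 2 and 2, which makes 26 OA and 11 serum mice on 49 arrays, 12 mice having 2 arrays each. Each array was a nylon filter of spotted cDNA clones hybridised with amplified RNA labelled with radioactive phosphorus. The tissue is labelled PBMC, while the extraction text speaks of lung, and the kit named there is one for blood. Of the white cell markers with a clone, 8 of 13 for T cells, 6 of 8 for B cells, 4 of 7 for NK cells and 7 of 7 for neutrophils were well above background, as defined below, on most arrays, and so were 7 of 13 red cell markers.

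P2ry12 encodes the ADP receptor that couples to an inhibitory G protein and sustains platelet aggregation, and is the target of the clopidogrel class of drugs. Itga2b encodes integrin alpha IIb (CD41), which pairs with integrin beta 3 to form the fibrinogen receptor of platelets. Platelets have no nucleus, so their RNA was loaded by the megakaryocytes of marrow and lung. P2ry12 is also a known marker of brain microglia. In RNA pooled from many cells, fewer platelets in the sample and less of a transcript per platelet cannot be told apart.

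In the RefSeq annotation (build GRCm38.p6) P2ry12 lies at chr3:59216271-59262985 on the minus strand, within the span of Med12l, a Mediator subunit gene at chr3:59005419-59318446. Itga2b lies at chr11:102453297-102469883, also on the minus strand. The 250 bases before each start are shown because megakaryocyte genes are known to be read through GATA and ETS factors, with matches to GATAA and to GGAA on either strand (TTATC and TTCC in reverse) in capitals. Coordinates are chr3:59262986-59263235 and chr11:102469884-102470133.
P2ry12: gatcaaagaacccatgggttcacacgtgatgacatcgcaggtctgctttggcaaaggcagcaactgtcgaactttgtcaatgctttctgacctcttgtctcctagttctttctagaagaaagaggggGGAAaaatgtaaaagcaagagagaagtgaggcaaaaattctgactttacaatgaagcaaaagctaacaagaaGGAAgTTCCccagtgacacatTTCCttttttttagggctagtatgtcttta
Itga2b: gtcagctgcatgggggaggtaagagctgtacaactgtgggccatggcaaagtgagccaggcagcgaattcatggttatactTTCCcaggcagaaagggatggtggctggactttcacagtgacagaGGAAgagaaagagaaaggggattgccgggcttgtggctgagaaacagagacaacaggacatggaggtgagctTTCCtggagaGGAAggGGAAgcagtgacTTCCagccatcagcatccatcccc
The P2ry12 window held 4 matches to GGAA and the Itga2b window 6, and neither held GATAA. Among all 32851 windows of the same length, 93.4% held GGAA and 22.6% held GATAA, so a match to GGAA sets neither gene apart, and the absence of these letters says nothing of the factors.

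Both clones gave signal on every array. The authors' quality mark was 1 on 49 arrays for Itga2b and on 46 for P2ry12, and the 3 marked 0 were kept. A spot was called well above background when its signal exceeded the median of the array's empty spots by 2.6 robust standard deviations, and both clones passed on 49 of 49 arrays. Itga2b was also above the 95th percentile of the empty spots on 49 arrays, and P2ry12 on 34, so the lower values of P2ry12 lie near the brightest empty spots. Raw signals ran over 199 to 8561 for P2ry12 (median 656) and over 439 to 3428 for Itga2b (median 1386), and no value of either was at the scanner's ceiling. The clone spotted next to P2ry12 for Rad21 was brighter than P2ry12 on 15 arrays and that for Smpdl3a on 2, while Itga2b exceeded all its neighbours on every array, and whether a bright neighbour adds to a spot was not tested. Values below are log2 signals after quantile normalization, averaged over the filters of a mouse. The 2 filters of a mouse differed by a median of 0.26 for P2ry12 and of 0.40 for Itga2b, against medians of 0.67 and 0.34 between mice of a group. For Itga2b, then, filters of 1 mouse differed about as much as mice of a group did.

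Of the 37 mice, 7 stood apart on the first principal component of all clones, which held 36.21% of the variance. Their scores were 38.2 to 70.7, against -18.9 to 6.67 in the other 30. They were OA mouse 7 at 3 h, OA mice 2 and 3 at 4 h, OA mouse 2 at 18 h, serum mice 1 and 4 at 4 h and serum mouse 1 at 18 h, so they fall in both treatments and none is early. Their empty spots had median log2 signals of 6.49 to 6.59 against 6.36 to 6.50 in the others, and the share of clones well above background was 41.8% to 49.2% against 46.3% to 57.9%. The cause of the separation was not tested, and the main values of the 2 genes are given with and without these mice.

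The mean of P2ry12 was highest at 4 h in OA mice and in serum mice alike. In OA mice it averaged 8.89 ± 0.77 at 1 h (SD, n = 4), 9.11 ± 0.71 at 1.5 h (n = 6), 9.58 ± 1.75 at 3 h (n = 4), 11.08 ± 1.39 at 4 h (n = 4), 9.49 ± 0.71 at 18 h (n = 4) and 9.56 ± 0.34 at 24 h (n = 4). In serum mice it averaged 8.48 ± 0.28 at 1 h (n = 2), 10.11 in the single mouse at 1.5 h, 8.91 ± 0.64 at 3 h (n = 2), 11.48 ± 1.29 at 4 h (n = 2), 9.94 ± 0.04 at 18 h (n = 2) and 8.69 ± 0.17 at 24 h (n = 2). In OA mice no gap between neighbouring means in the order exceeded the larger SD of the pair. In serum mice the gap of 1.37 below the 4 h mean exceeded the larger SD of 1.29, with a single mouse next in the order. So did the gap of 0.17 below that mouse at 1.5 h (SD 0.04) and that of 1.03 below the 18 h mean (larger SD 0.64), all in groups of 1 or 2 mice.

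The 4 h values spread widely. OA mice at 4 h had P2ry12 signals of 12.99, 11.22, 10.13 and 9.96, and serum mice had 12.39 and 10.57. The serum values lay inside the range of the OA values, and the highest mouse of each treatment was one of the 7 that stand apart. At 3 h OA mice had 8.84, 8.41, 8.88 and 12.18, and serum mice had 9.37 and 8.46. The OA mouse at 8.41 is the one on the array numbered 38, whose labelled group was put in doubt by earlier work on these data and was not examined here. Without it the P2ry12 difference at 3 and 4 h, OA minus serum, was 0.33 in place of 0.13, and did not pass either. A single OA mouse, again one of the 7, set the 3 h mean, which was 8.71 ± 0.26 without it (n = 3). At 18 h OA mice had 10.37, 8.77, 9.07 and 9.74, against 9.97 and 9.91 in serum mice, and the groups overlapped. At 24 h OA mice had 9.26, 9.88, 9.82 and 9.27, all above the serum values of 8.81 and 8.57. At the first hour OA mice had 9.17, 9.23, 7.75 and 9.42, and the serum mice, at 8.28 and 8.67, lay between the lowest OA mouse and the others. At 1.5 h the OA mice had a lowest value of 8.24, a median of 9.0 and a highest of 10.26, and the serum mouse at 10.11 lay within that range.

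**Figure D1:**
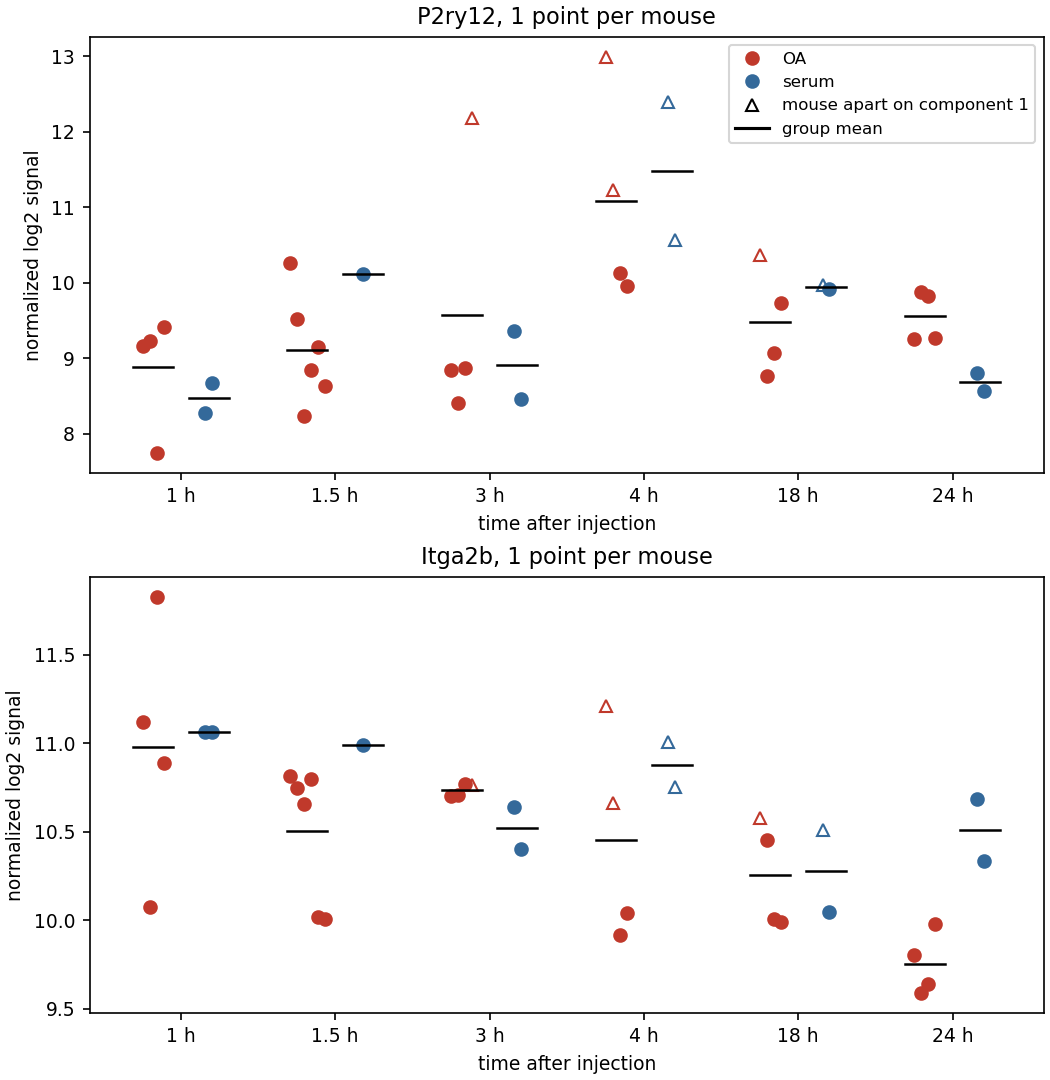
Normalized log2 signal of P2ry12 (upper panel) and Itga2b (lower panel) by time after injection, with OA mice left of serum mice at each time. Each point is a mouse, bars are group means, and open triangles are the 7 mice that stand apart on the first component of all clones. P2ry12 peaks at 4 h in both treatments, where 4 of the 6 mice are triangles, and Itga2b is lowest at 24 h in OA mice.

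The level of P2ry12 followed the first component. The 7 mice apart had P2ry12 signals of 9.97 to 12.99 (median 11.22), against 7.75 to 10.26 (median 9.16) in the other 30. Across all 37 mice the Pearson correlation of P2ry12 with the component was 0.85, and it was 0.55 over the 30 mice without those 7. P2ry12 enters the component as 1 clone of 7739, and the mice share the array normalization, so these values describe the arrays and carry no test. P2ry12 also correlated with the median signal of the array's empty spots, at r = 0.76 over 37 mice and 0.38 over 30. Without the 7 mice the OA mean at 4 h was 10.05 ± 0.12 (n = 2), still the highest of the OA times, and no serum mouse was left at 4 h. The sums of some gene lists also moved with P2ry12, and those of others did not. Over 37 mice P2ry12 had r = 0.68 with the summed signal of 19 platelet granule genes, 0.49 with that of 13 megakaryocyte transcription factors and -0.59 with that of 19 integrin activation and signalling genes. It had r = 0.58 with the sum of 7 NK cell markers, 0.40 with that of 10 monocyte markers and -0.40 with that of 8 B cell markers. With the sum of 11 platelet surface receptors r was -0.05, with that of 12 cytoskeletal genes 0.17 and with that of 10 other integrin chains -0.48. With the sum of 13 T cell markers it was -0.09. These values include the 7 mice apart, and r of the sums was not computed without them. In the 6 mice at 4 h the NK sum was 2170 to 4139 (median 2926), against 1670 to 5962 (median 2158) at all other times. The B cell sum was 2767 to 4007 (median 3692), against 3001 to 6926 (median 4870), and the granule sum was 39093 to 53820 (median 47207), against 16976 to 51758 (median 35666). The signalling sum was 19938 to 37772 (median 34942), against 30153 to 53562 (median 42155). These ranges overlap in each case. The sums add signals that are not on the log scale, so the brightest clones weigh most. Among single granule genes r with P2ry12 ran from -0.81 (Stxbp2) to 0.83 (Pdgfa), with 0.20 for Pf4 and 0.75 for Ppbp. In the signalling list Plcb3, with a mean log2 signal of 14.39 in late OA mice, reached the scanner's ceiling on 29 of 49 arrays. The part that these lists or the separation of the 7 mice play in the 4 h level of P2ry12 was not tested.

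**Figure D2:**
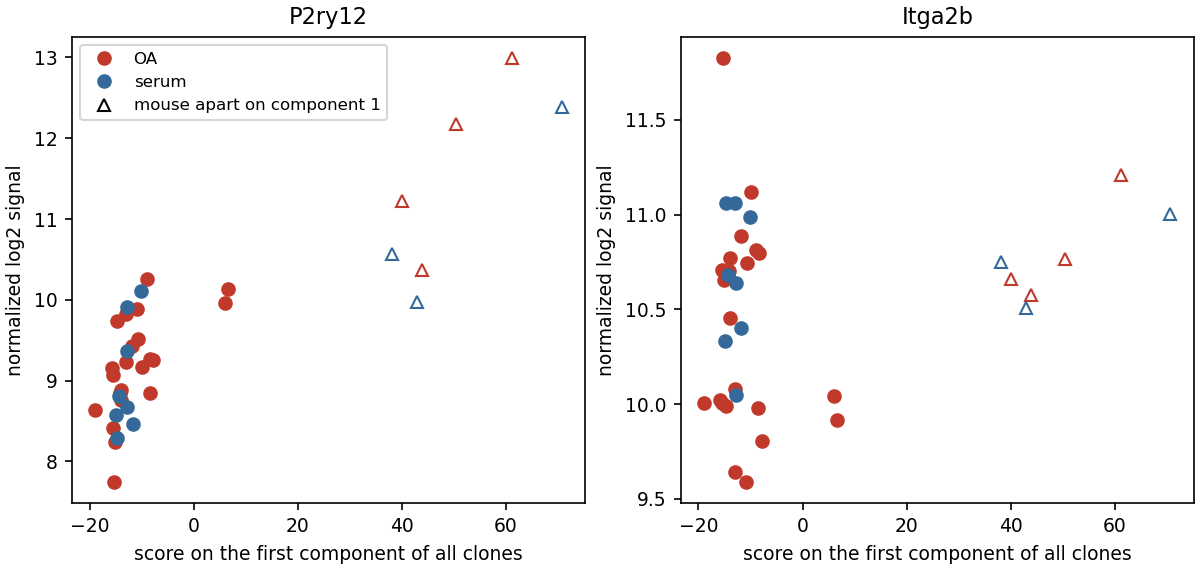
Normalized log2 signal of P2ry12 (left) and Itga2b (right) against each mouse's score on the first principal component of all clones. OA mice are red and serum mice blue, and open triangles are the mice apart. P2ry12 is higher toward high scores (r = 0.85, n = 37), while for Itga2b (r = 0.24) the triangles lie at 10.51 to 11.21, inside the range of 9.59 to 11.83 of the other mice.

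Itga2b had its highest mean at 1 h and its lowest late. In OA mice it averaged 10.98 ± 0.72 at 1 h (SD, n = 4), 10.51 ± 0.39 at 1.5 h (n = 6), 10.74 ± 0.04 at 3 h (n = 4), 10.46 ± 0.60 at 4 h (n = 4), 10.26 ± 0.30 at 18 h (n = 4) and 9.75 ± 0.18 at 24 h (n = 4). In serum mice it averaged 11.06 ± 0.00064 at 1 h (n = 2), 10.99 in the single mouse at 1.5 h, 10.52 ± 0.17 at 3 h (n = 2), 10.88 ± 0.18 at 4 h (n = 2), 10.28 ± 0.32 at 18 h (n = 2) and 10.51 ± 0.25 at 24 h (n = 2). In the OA order only the step between 18 h and 24 h, of 0.50, exceeded the larger SD of its pair, which was 0.30. The 2 serum mice at 1 h gave nearly the same value, a closeness that the 0.40 between filters of a mouse does not back as a measure of their spread.

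At 24 h the OA mice had Itga2b signals of 9.80, 9.59, 9.64 and 9.98, below both serum mice at 10.68 and 10.33. The 24 h OA values were also below those of every OA mouse at 1, 1.5, 3 and 18 h, the lowest of the 18 h mice being at 9.99 and the lowest at 4 h being at 9.92. At 18 h OA mice had 10.58, 10.45, 10.01 and 9.99, against 10.51 and 10.05 in serum mice, and the groups overlapped. At 4 h OA mice had 11.21, 10.66, 9.92 and 10.04, against 11.01 and 10.75 in serum mice. At 3 h the OA values of 10.70, 10.71, 10.77 and 10.76 were all above the serum values of 10.64 and 10.40. At 1 h the OA mice had 11.12, 10.08, 11.83 and 10.89, and both serum mice at 11.06 lay inside their range. At 1.5 h the OA mice had a lowest value of 10.01, a median of 10.70 and a highest of 10.81, all below the serum mouse at 10.99.

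Late mice (18 and 24 h) were set against early mice (1 and 1.5 h) within each treatment. In OA mice Itga2b averaged 10.01 ± 0.35 late (n = 8) and 10.70 ± 0.56 early (n = 10). The lowest, median and highest late values were 9.59, 9.98 and 10.58, against 10.01, 10.77 and 11.83 early. All 8 late mice lay below the early mean and 6 lay below the lowest early mouse. With both times of a stage weighted equally, the late minus early difference was -0.74 on the log2 scale (SE 0.19), which is 1.67-fold lower, and this is the contrast known when the gene was chosen. P2ry12 in the same mice averaged 9.52 ± 0.52 late and 9.02 ± 0.70 early, a weighted difference of 0.52 (SE 0.44). Its late values of 8.77 to 10.37 (median 9.50) overlapped the early values of 7.75 to 10.26 (median 9.16).

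The serum mice do not enter the OA contrast known when the genes were chosen, although what led to the choice of P2ry12 is not given in the sources used here, and earlier values of serum mice were known too. In them Itga2b was low late as well, short of the threshold. Late serum mice had 10.51, 10.05, 10.68 and 10.33, against 11.06, 11.06 and 10.99 in early serum mice. All 4 late values lay below all 3 early ones. The weighted difference was -0.63 (SE 0.31, 95% interval -1.26 to -0.0025), or 1.55-fold lower, with a limma p of 0.049 before adjustment and 0.57 after Benjamini-Hochberg adjustment over 7739 clones, so Itga2b did not pass the threshold of 0.05. An exact two-sided permutation test over the 7 mice gave p = 0.057, where the smallest p the 35 splits allow is 0.029. P2ry12 differed by 0.02 in the same comparison (SE 0.72, 95% interval -1.45 to 1.5, limma adjusted p = 1.00, exact permutation p = 0.69). Its late serum values of 9.97, 9.91, 8.81 and 8.57 overlapped the early ones of 8.28, 8.67 and 10.11. Neither gene was called, beside 0.0258% of all clones called in this comparison. Of the 7739 clones, 674 had an unadjusted limma p under 0.05.

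The difference between the treatments in the late change of Itga2b, OA minus serum, was -0.11. For P2ry12 the corresponding value was 0.50. The OA side was known when the genes were chosen, so these are descriptions with no test. Without the 7 mice apart the late minus early difference of Itga2b was -0.79 (SE 0.18) in OA mice and -0.75 (SE 0.31, limma adjusted p = 0.40) in serum mice, and that of P2ry12 was 0.38 (SE 0.26) and 0.01 (SE 0.45).

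OA mice were then compared with serum mice at the same times, which is the contrast of the treatment itself. Averaged over the 6 times with equal weight, P2ry12 differed by 0.01 (SE 0.34, 95% interval -0.68 to 0.70) and Itga2b by -0.26 (SE 0.14, 95% interval -0.55 to 0.04). Neither passed, with limma adjusted p of 1.00 for both (0.97 and 0.083 before adjustment), and 0% of the 7739 clones passed, with 266 at an unadjusted p under 0.05. The interval for P2ry12 spans 0.63 to 1.63 times the serum level. At 1 and 1.5 h the differences were -0.30 for P2ry12 (SE 0.63) and -0.28 for Itga2b (SE 0.27), with 0% of clones called and 112 at an unadjusted p under 0.05. At 3 and 4 h they were 0.13 (SE 0.56) and -0.10 (SE 0.24), with 0.0129% of clones called and 393 at an unadjusted p under 0.05. At 18 and 24 h they were 0.20 (SE 0.56) and -0.39 (SE 0.24, 95% interval -0.88 to 0.10), with 0% of clones called and 220 at an unadjusted p under 0.05. All these limma adjusted p-values were 1.00. The late OA mice that enter the last comparison are those in which the low Itga2b level was already known. By single times, which were not tested, the Itga2b difference was nearest to 0 at 18 h, at -0.02 (SE 0.34), and farthest at 24 h, at -0.76 (SE 0.34).

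**Figure D3:**
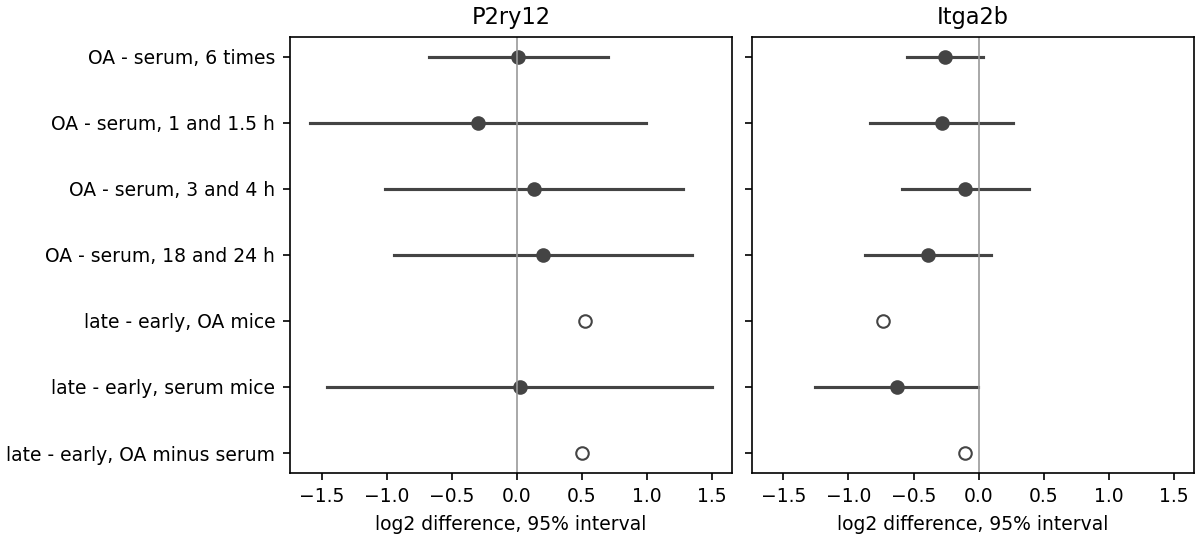
Differences in log2 signal of P2ry12 (left) and Itga2b (right), OA minus serum over all times and by stage, then late minus early in OA mice, in serum mice, and their difference. Filled points have 95% intervals from limma, and open points, without intervals, involve the contrast known when the genes were chosen. Every interval for P2ry12 spans 0, and the serum interval of Itga2b ends just below it at -0.0025.

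Other genes of platelets and megakaryocytes were set beside all genes in the same comparisons. Of 140 further genes in 5 lists, 74 had a clone. Late against early in OA mice, 1 of the 74 rose and 3 fell, which is 5.41%, against 8.28% of all 5770 genes (4.37% rose and 3.92% fell). At an unadjusted limma p under 0.05 were 22 of the 74, against 1560 of the 5770. Neither count is read as a trait of these lists. Zfpm1, the GATA cofactor FOG1, rose by 0.50 (SE 0.13, limma adjusted p = 0.018). Mafk, a small Maf partner of the megakaryocyte factor NF-E2, fell by 0.88 (SE 0.21, adjusted p = 0.0093), and Actn1, a platelet cytoskeletal actinin, fell by 0.57 (SE 0.14, adjusted p = 0.013), both by limma. Rasgrp2, the exchange factor that activates Rap1 and with it alpha IIb beta 3, fell by 0.73 (SE 0.21, limma adjusted p = 0.032), but its clone was well above background on only 7 arrays and the call was lost in 7 of 37 fits that left out a single mouse. All 4 calls, like those of the other lists named below, were lost without the 1.5 h mice and also without the 24 h mice. In serum mice none of the 74 passed, beside 0.0347% of all genes called. At an unadjusted limma p under 0.05 were 5 of the 74, against 514 of the 5770. In OA against serum over all times none passed either. The counts at an unadjusted limma p under 0.05 were 6 of the 74 and 201 of the 5770.

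None of the 5 defining platelet and megakaryocyte genes with a clone passed late against early in either treatment. Pf4, platelet factor 4, averaged 13.93 ± 0.46 in late OA mice and 13.59 ± 0.70 in early OA mice (SD, n = 8 and 10), a difference of 0.31 that did not pass (limma adjusted p = 0.44). Ppbp, the chemokine CXCL7 of platelet granules, averaged 13.69 ± 0.33 late and 13.27 ± 0.90 early, a difference of 0.40 (adjusted p = 0.41, limma). Gp9, a subunit of the von Willebrand factor receptor, averaged 10.30 ± 0.88 late and 9.61 ± 0.73 early, a difference of 0.67 (adjusted p = 0.20, limma). Gata1 and Nfe2, transcription factors of the megakaryocyte and red cell lines, differed by 0.10 and 0.06 and did not pass. All 5 were well above background on 49 arrays. Pf4 reached the scanner's ceiling on 2 arrays and Ppbp on 1, so their highest values are lower bounds. No test compared these changes with that of Itga2b. Clones for Itgb3, Gp1ba, Gp1bb, Gp5 and Tubb1 were not analysed here, so the integrin partner of Itga2b has no value. Of the 11 platelet surface receptors with a clone, 9 had a positive late minus early difference in OA mice and 8 in serum mice, with medians of 0.31 and 0.19 against -0.01 and 0.01 over all genes, and none passed. Of the signalling genes 5 of 19 were positive in OA mice (median -0.15), of the granule genes 7 of 19 (median -0.15), of the cytoskeletal genes 4 of 12 (median -0.06) and of the transcription factors 10 of 13 (median 0.10). Among 10 other integrin chains, of which only 2 were well above background on most arrays, none passed, with a median of -0.01 in OA mice. Of 4 genes in the list of other nucleotide receptors and ectonucleotidases none was well above background on most arrays. The adenosine receptor gene Adora2a among them, well above background on 8 arrays, fell by 0.63 (SE 0.13, limma adjusted p = 0.0054).

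**Figure D4:**
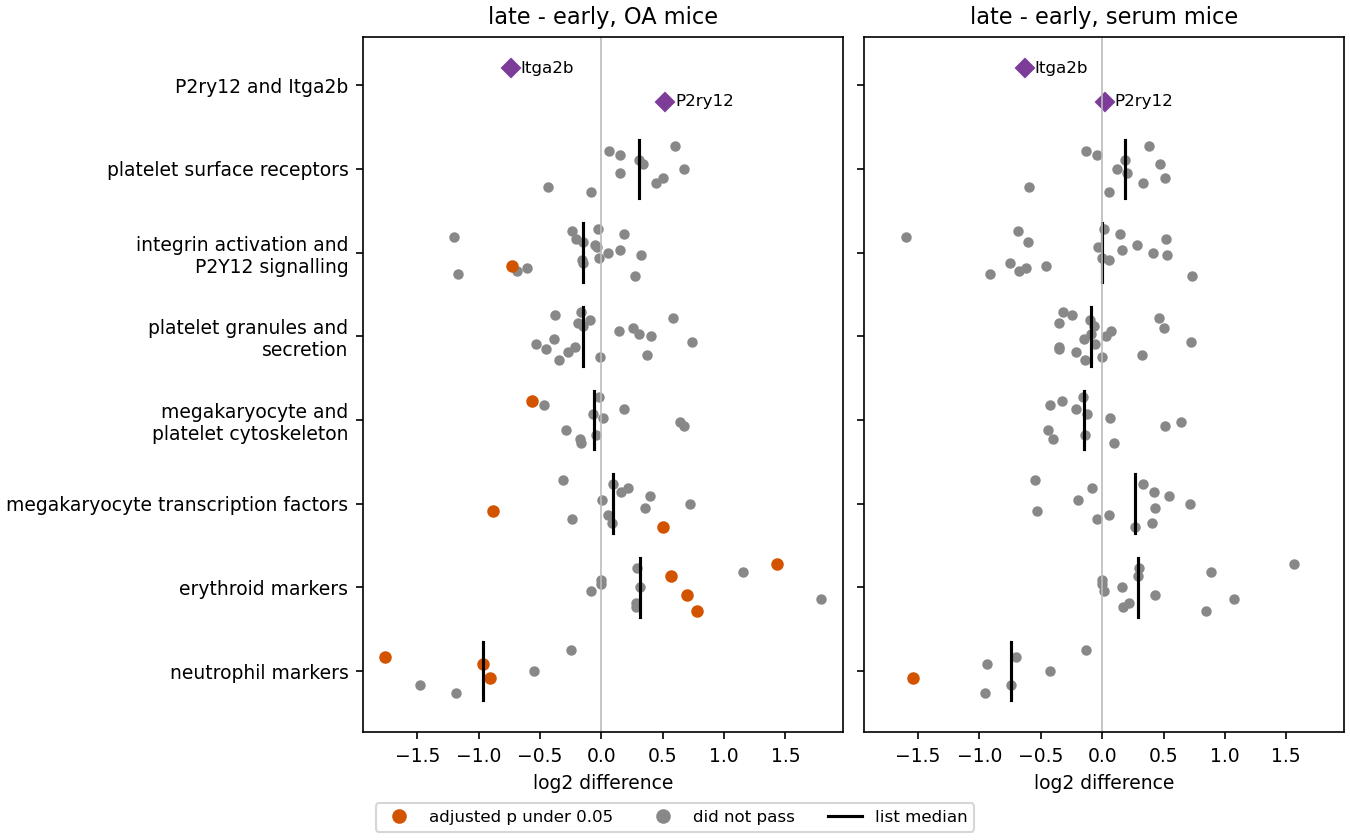
Late minus early difference in log2 signal for each measured gene of 7 lists, in OA mice (left) and serum mice (right), with P2ry12 and Itga2b as diamonds in the top row. Orange points passed a limma adjusted p of 0.05, gray points did not, and black bars are list medians. Itga2b lies left of 0 in both panels, at -0.74 and -0.63, while the receptor list has medians of 0.31 and 0.19. Medians of the other platelet and megakaryocyte lists run from -0.15 to 0.10 in OA mice and from -0.15 to 0.265 in serum mice.

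Some markers of other blood cells passed late against early in OA mice, beside 8.28% of all genes. The few calls among monocyte, T cell and B cell markers are not read as a trait of those lists. Late minus early, 11 of 13 red cell markers were positive in serum mice (median 0.29) and 12 of 13 in OA mice (median 0.31). Of the neutrophil markers 0 of 7 were positive in either treatment, with medians of -0.74 in serum mice and -0.96 in OA mice. Of 13 red cell markers, 4 rose late in OA mice (30.8%, against 8.28% of all genes) and none fell. Alas2, the first enzyme of heme synthesis in red cells, rose by 1.43 (SE 0.41, limma adjusted p = 0.030), a call lost in 7 of 37 fits without a single mouse. Trim10 rose by 0.78, and Rhd and Car1, well above background on 4 arrays and 1, rose by 0.69 and 0.57. Without the 24 h mice these differences were 0.95 for Alas2, -0.12 for Trim10, 0.087 for Rhd and 0.18 for Car1. Alas2 averaged 13.69 ± 0.68 in late OA mice and 12.29 ± 1.19 in early ones. The summed signal of 11 red cell markers, without the 2 globin clones at the scanner ceiling, was 11963 to 53635 in late OA mice and 3619 to 34004 in early OA mice. In serum mice it was 20013 to 39398 late and 7921 to 32760 early. Of 7 neutrophil markers 3 fell late in OA mice (42.9%): the lectin receptor Clec4d fell by 1.76, the decoy receptor Il1r2 fell by 0.96 and lactoferrin, Ltf, fell by 0.90. In serum mice Ltf fell by 1.54 (SE 0.28, limma adjusted p = 0.045), a call lost in 21 of 37 fits without a single mouse. The summed signal of the 7 neutrophil markers was 2817 to 24572 in late OA mice and 6041 to 40698 in early OA mice, and in serum mice 2593 to 30273 late and 12584 to 16327 early. Among monocyte markers 1 of 10 passed in OA mice (10%): the lysosomal protease gene Ctsb rose by 0.92 (SE 0.24, limma adjusted p = 0.019) and had r = -0.67 with Itga2b over 37 mice. Of 13 T cell markers 2 passed (15.4%): Cd8a, the CD8 alpha chain, rose by 0.49 (limma adjusted p = 0.024) and the adhesion receptor gene Cd2 fell by 0.38 (limma adjusted p = 0.023). Of 8 B cell markers the tetraspanin gene Cd37 fell by 0.72 (12.5%, limma adjusted p = 0.0045). With Itga2b, Cd8a had r = -0.18, Cd2 had 0.47 and Cd37 had 0.05 over 37 mice, and Cd37 had r = -0.71 with P2ry12. No NK cell or mast cell marker passed. Over 37 mice, Itga2b had r = -0.66 with the red cell sum and 0.51 with the neutrophil sum, and P2ry12 had -0.21 and 0.00. No marker was at 0 in any mouse. No background was subtracted here and the lowest signal of any spot was 15, so this does not show that a marker was detected. The part of RNA of other blood cells in the level of Itga2b was not tested.

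Over all mice P2ry12 and Itga2b did not vary together, and without the 7 mice apart they leaned in opposite directions. Over the 37 mice their Pearson correlation was 0.05 (Spearman -0.02), and 0.22 once the mean of each group was removed. Over the 30 mice without the 7 apart it was -0.48. Over the 74 platelet and megakaryocyte genes the median correlation with P2ry12 was -0.14, with a range of -0.81 to 0.83 and 29 of 74 positive, against a median of 0.07 over all other genes. With Itga2b it was -0.05, with a range of -0.66 to 0.63 and 32 of 74 positive, against 0.03 over all other genes. Without the 7 mice apart the medians over the 74 genes were 0.10 for P2ry12 and -0.04 for Itga2b. Ppbp was among the platelet genes nearer to P2ry12, at r = 0.75, with Pf4 at 0.20 and Gp9 at -0.25. Alas2 had r = -0.66 with Itga2b and -0.08 with P2ry12.

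None of the genes most like each of the pair was in the 5 platelet and megakaryocyte lists. For P2ry12 the 5 highest correlations over mice were with Rida, a deaminase of reactive metabolites (r = 0.94), Bhlhe40, a repressor tied to the clock (0.90), the Mediator subunit Med21 (0.90), the Hsp90 cochaperone Cdc37 (0.88) and the proton pump subunit Atp6v1e1 (0.87). With group means removed they were Rida (0.91), Birc2 (0.89), S100a10 (0.87), Pcolce (0.86) and Atp6v1e1 (0.86), and Med21 and Pcolce were well above background on only 10 and 9 arrays. Over the 30 mice without those apart, these 8 genes had r of 0.44 to 0.82 with P2ry12. For Itga2b the 5 were the splicing factor Srsf10 (0.79), the cold-inducible RNA-binding protein Rbm3 (0.78), the ribosomal protein Rps4x (0.77), the peptidase Tpp2 (0.77) and the GTPase Arf6 (0.75). With group means removed they were Herpud2 (0.81), Alyref2 (0.81), Siglece (0.77), Olfm1 (0.77) and Fbp2 (0.76). Over the same 30 mice these 10 genes had r of 0.65 to 0.84 with Itga2b. All these correlations are over mice that share array and normalization, and they describe likeness of pattern only.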

How the data were processed

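Spot intensity was read from the scanner files that the authors deposited, 1 per array, with a quality score of 0 or 1 for each spot as the authors deposited it; spots marked 0 were kept. A quantile normalized log2 table deposited by the authors was used as an alternative only; how its background was handled is not given in the sources used here. Per the labels, RNA was amplified and labelled with 33P. Spots of 1 clone were averaged, then filters of 1 mouse. Intensities were taken to the log2 scale, quantile normalization was applied across the 49 arrays, and limma (version 3.58.1, R 4.3.3) fitted a mean for each of 12 groups with 1 shared spread over 37 mice, with empirical Bayes moderation and Benjamini-Hochberg adjustment over 7739 clones (threshold 0.05). The number of arrays limits precision. Mice were grouped by the labels, and the fit was tested on simulated data. Gene names came from the files and were updated through RefSeq: 6430 clones by current symbol and 1039 by synonym, with 270 unmatched. Of several clones of a gene the brightest was used.

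The members, the 14 gene lists and the comparisons were chosen with earlier results of these data known. Named genes are both members, listed genes past the threshold (up to 6 a list), set defining genes, and the 5 genes most alike by 2 correlation measures. The rule for well above background was set after the data were seen. Alternatives covered normalization, background, dim clones, filters, moderation, a replicate block and left-out mice, arrays, times and spots marked 0. Separate mice are replicates, and the study's text states 39 mice, of which 2 were not analysed here.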

Additional observations from a re-analysis of the deposited data

Results flagged for a closer look

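In groups of 4 or 6 OA mice, P2ry12 had a sample far from the others at both 1 h and 3 h. At 1 h mouse 5 had a log2 signal of 7.75, with the other mice at 9.17 to 9.42. At 3 h mouse 7 had 12.18, with the others at 8.41 to 8.88. The 3 h mouse is one of the 7 that stand apart on the first component, and the 1 h mouse is not. The 1 h mouse also had the highest Itga2b signal of all mice, at 11.83. Of 12 gene and group combinations looked at, 2 stood out in this way, and chance gives about 1 in 20, so no pattern is read from the pair.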

How the results depend on the processing

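The direction of Itga2b held under every alternative in OA against serum over all times, at 1 and 1.5 h and at 18 and 24 h, and in late against early mice of both treatments. Its late minus early difference in OA mice was -0.99 to -0.49 over the alternatives other than single mice and -0.89 to -0.60 without a single mouse, and in serum mice -0.77 to -0.52 and -0.75 to -0.52, with adjusted p of 0.51 to 0.83 without a single mouse. At 3 and 4 h the Itga2b difference turned to 0.00876 with 1 filter per mouse and to 0.21 without the 7 mice apart, an alternative chosen after seeing the data, which leaves only 3 h to compare. P2ry12 in OA against serum turned to -0.13 over all times and -0.20 at 3 and 4 h without those 7 mice. In late against early serum mice P2ry12 turned to -0.036 with the authors' deposited table, -0.79 without 1 h and -0.60 without 18 h.

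With a single mouse left out, P2ry12 in OA against serum ran over -0.14 to 0.22 over all times (lowest without serum mouse 4 at 4 h, highest without the serum mouse at 1.5 h), -0.41 to 0.41 at 1 and 1.5 h and -0.32 to 0.59 at 3 and 4 h, and late against early in serum mice over -0.075 to 0.84. None of these passed the threshold. The mouse numbers were not taken to pair the mice. Deviations of mice with the same number in different groups had a median correlation of -0.0006 over 76 pairs (range -0.56 to 0.63). Over 504 pairs with different numbers it was 0.0059 (range -0.83 to 0.83). These medians cannot exclude a pairing or a batch shared by number. With the number as a replicate block, P2ry12 in OA against serum was -0.022 over all times and -0.17 at 3 and 4 h. Itga2b was 0.034 at 3 and 4 h, -0.10 over all times (SE 0.35) and -0.037 at 1 and 1.5 h (SE 0.45). The block called 0 clones at 3 and 4 h and 0 in late against early serum mice. It called 781 in late against early OA mice.

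The 637 clones called late against early in OA mice became 0 without 1.5 h, 4 without 24 h, 1274 without 18 h and 1363 without the 7 mice, and 256 (without OA mouse 5 at 1 h) to 912 (without OA mouse 2 at 1 h) without a single mouse. The 2 clones called in serum mice became 0 or 1 under median scaling (0), background subtraction (0), 1 filter per mouse (1), without the array numbered 38, OA mouse 3 at 3 h (0), without 1 h (1), 1.5 h (0), 18 h (1) or 24 h (0) and without the 7 mice (0), and 0 to 6 without a single mouse. The single clone at 3 and 4 h became 0 under median scaling, the authors' deposited table, the filter on dim clones, 1 filter per mouse and without the 7 mice, 2 with trended robust moderation, 4 with background subtraction, and 0 to 104 without a single mouse (104 without serum mouse 4 at 4 h). Background subtraction called 1 clone at 1 and 1.5 h and 1 at 18 and 24 h, and leaving out a mouse called 0 to 12 at 18 and 24 h and 0 to 2 over all times.

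All 16 listed genes called late against early in OA mice lost the call without 1.5 h and without 24 h, where Trim10 reversed to -0.12. Without a single mouse Actn1, Mafk, Adora2a, Rhd, Car1, Ltf, Il1r2, Clec4d and Cd37 kept the call in all 37 cases. Zfpm1 lost it without OA mouse 5 at 1 h, and Trim10 without OA mouse 6 at 1 h or mouse 5 at 18 h. Cd8a lost it without OA mouse 6 at 1 h, Cd2 without OA mouse 5 or 6 at 1 h or mouse 5 at 18 h, and Ctsb without OA mouse 5 at 1 h, mouse 5 at 18 h or mouse 2 at 24 h. Rasgrp2 and Alas2 each lost it in 7 cases, and the serum call of Ltf was lost in 21. Leaving out spots of quality mark 0, an alternative chosen after seeing the data, kept 2168 clones with a value in enough mice and dropped the P2ry12 value of serum mouse 1 at 18 h. It called 174 clones late against early in OA mice, 0 in serum mice and 0 at 3 and 4 h, and P2ry12 and Itga2b kept their directions. Of the listed genes called in OA mice, Zfpm1, Clec4d, Cd8a and Cd37 kept the call, and Actn1, Alas2 and Ctsb lost it. Rasgrp2, Mafk, Adora2a, Rhd, Car1, Trim10, Ltf, Il1r2 and Cd2 were not among the clones kept, so their calls could not be tried. The cause of these changes was not tested. Serum groups of 1 or 2 mice and the signal of P2ry12 near the brighter empty spots limit what could be detected, and the lone serum mouse at 1.5 h is assumed to vary like the other groups. No alternative clone of either gene could be tried, since each has 1.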

Other observations

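The 2 filters of a mouse placed that mouse at the same end of the first component. The OA mouse apart at 18 h had scores of 43.0 and 44.9 on its filters, and the serum mouse apart at 4 h with 2 filters had 38.1 and 38.4. In the 10 other mice with 2 filters the scores were all 6.96 or lower. P2ry12 on the filters of these mice was 9.95 and 10.79 at 18 h, and 10.50 and 10.65 at 4 h. Whether the separation arises in the animal, the blood sample or the RNA was not tested.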
